A study of Mus musculus with 6 samples.

Results

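The genes followed here were 10 of the 24346 gene symbols measured: 8 CC chemokines (Ccl2, Ccl3, Ccl4, Ccl5, Ccl6, Ccl7, Ccl9 and Ccl24) and 2 chemokine receptors of blood monocytes (Ccr2 and Cx3cr1). They were found by symbol, and all 10 were present in the expression table and passed the filter on low values. RNA of the liver was sequenced in 3 Control and 3 Lipophagy mice, all male C57BL/6 animals (C57BL/6J in the methods) aged 8 weeks when their diet began. Every mouse was fed CDAHFD, a high-fat diet with defined amino acids and too little choline that gives a fatty, inflamed and fibrotic liver, for 6 weeks. It then received a single intravenous dose of an adeno-associated virus of serotype 8, was returned to normal chow and was analysed 2 weeks later. In both groups the virus carried mCherry joined to LDTS, a lipid droplet-targeting sequence taken from mouse perilipin 1, under the thyroxine-binding globulin promoter, which is active in hepatocytes. In Lipophagy mice LDTS was followed by eLIR, an engineered LC3-interacting region of human optineurin that links the droplet to the autophagy machinery, and in Control mice by a mutant of that region. There was therefore no group without virus, without LDTS or without the diet, and the protein was made in hepatocytes, whereas most of the 10 genes are expressed mainly by blood-derived and resident immune cells.

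Chemokines are small secreted proteins that bind to G protein-coupled receptors on leukocytes and direct their movement along a gradient. CCR2, with its ligands CCL2 and CCL7, brings Ly6C-high monocytes out of the bone marrow and into the injured liver, where they become macrophages, and CX3CR1 marks the patrolling monocytes and many monocyte-derived cells. CCL3, CCL4 and CCL5 attract monocytes and T cells, CCL6 and CCL9 are mouse chemokines that act through CCR1, and CCL24 (eotaxin-2) attracts eosinophils through CCR3. The question asked of these genes was whether the message for recruiting monocytes, and the receptors that mark them, differed between livers with and without induced lipophagy.

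The values are FPKM (fragments scaled to transcript length and to all mapped fragments), which can be set side by side between genes. Ccl2, Ccl7, Ccl3 and Ccl4 were lower in Lipophagy livers, with group means between 0.426 (Ccl7) and 0.547 (Ccl3) of the Control mean, and the receptors Ccr2 and Cx3cr1 were at 0.716 and 0.680 of it. Ccl5, Ccl6 and Ccl9, the most abundant chemokines among the 8, were at 0.992, 0.921 and 0.9996 of the Control mean, and Ccl24 was at 1.28 of it. No gene among the 10 passed the test across all genes (limma on log2(FPKM + 1), Benjamini-Hochberg adjusted p below 0.05), so each of these is a difference in these 3 and 3 livers and not a called change. Of all 11493 tested genes, 3 (0.0261%) passed that test.

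Counted without adjustment, 6 of the 10 were lower at a p below 0.05 (Ccl2, Ccl7, Ccl3, Ccl4, Ccr2 and Cx3cr1) and 0 were higher, where 7.97% of all tested genes were lower at that level. For 5 of the 10 every Lipophagy liver lay below every Control liver, where this held for 10.8% of all tested genes. When every liver was scaled to the same sum (TPM), it held for 6 of the 10 and for 27.2% of all tested genes. The median log2 change of the 10 was -0.32, against 0.020 over all tested genes. Among the 11493 changes, those of Ccl2, Ccl3, Ccl7 and Ccl4 ranked 50, 80, 82 and 94 from the most negative, and those of Cx3cr1 and Ccr2 ranked 465 and 552.

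**Figure D1:**
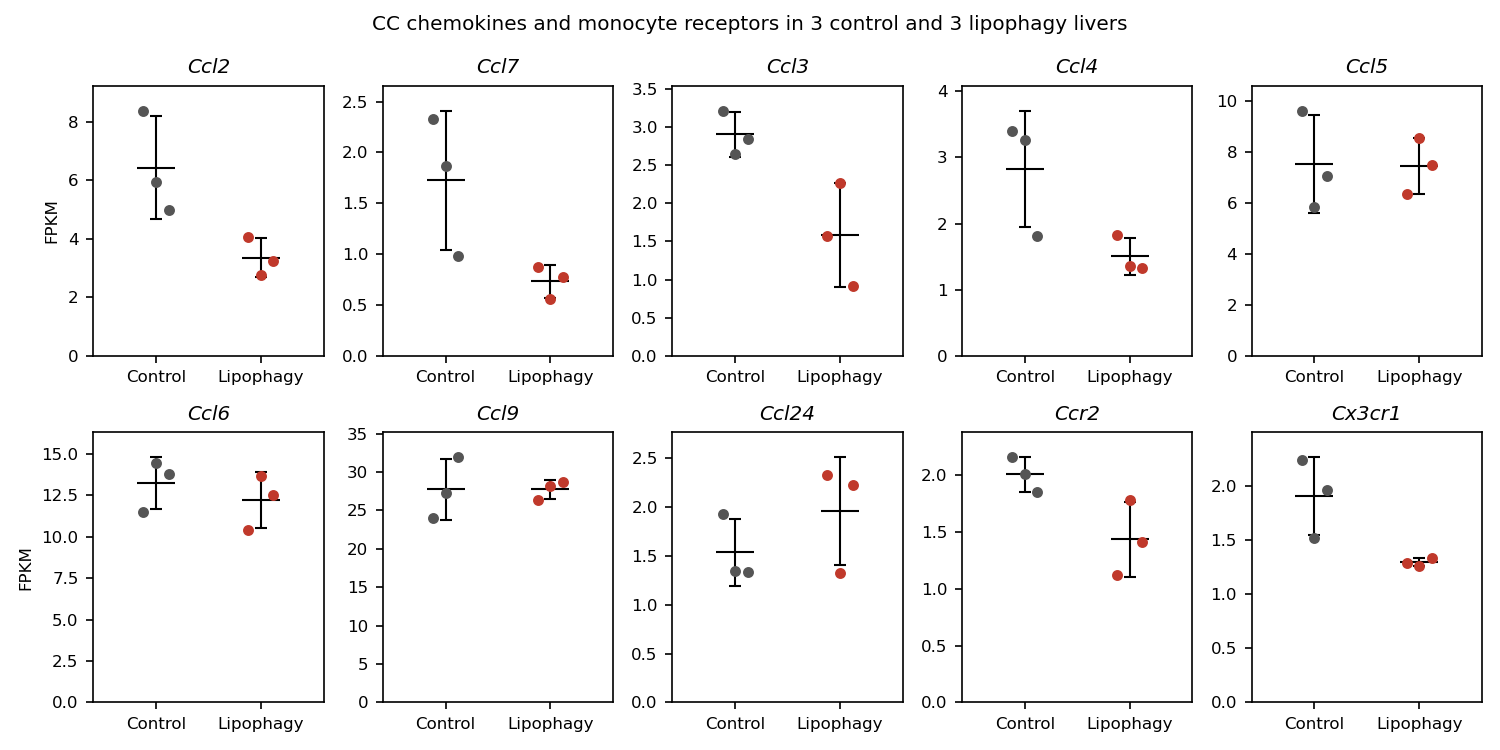
FPKM of the 10 genes in each liver (points; grey Control, red Lipophagy), with the group mean and SD as black bars; each panel starts at 0. Ccl2, Ccl7, Ccl3, Ccr2 and Cx3cr1 are the panels in which the 3 red points lie below the 3 grey points.

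Most of the chemokine genes lie in clusters on chromosome 11 (places in genome build GRCm38, GENCODE). Ccl2 (chr11:82035571-82037453) and Ccl7 (chr11:82045712-82047525) are neighbours on the plus strand. Further along the same chromosome stand Ccl5 (chr11:83525778-83530518), Ccl9 (chr11:83572919-83578636), Ccl6 (chr11:83587882-83593087) and Ccl3 (chr11:83647844-83649355), all on the minus strand, and then Ccl4 (chr11:83662584-83664683) on the plus strand. The RefSeq model of Ccl4 starts at 83648624, inside Ccl3 on the opposite strand. The libraries were made with a strand-specific kit, and whether strand was used in the counting is not given in the sources used here. Ccl24 is on chromosome 5 (chr5:135569937-135573049), and Cx3cr1 (chr9:119901616-120069879) and Ccr2 (chr9:124101950-124113557) are both on chromosome 9.

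The 250 bases before the start of Ccl9, Ccl6 and Ccl3 are shown (RefSeq, GRCm38.p6, minus strand, read 5′ to 3′) because these genes stand in a row on 1 strand, with Ccl3 lower in every Lipophagy liver and Ccl9 and Ccl6 overlapping between groups. Capitals mark matches to GGNNNTTCC (NF-kB) or TGANTCA (AP-1) on either strand; the interferon response motif AAANNGAAA was searched as well, and the 2 matches found do not overlap. The windows are chr11:83578637-83578886, chr11:83593088-83593337 and chr11:83649379-83649628.
Ccl9: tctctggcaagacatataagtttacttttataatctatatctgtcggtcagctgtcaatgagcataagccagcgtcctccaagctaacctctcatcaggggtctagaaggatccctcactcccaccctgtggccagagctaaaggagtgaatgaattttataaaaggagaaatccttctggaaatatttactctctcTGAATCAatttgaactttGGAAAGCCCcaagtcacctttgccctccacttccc
Ccl6: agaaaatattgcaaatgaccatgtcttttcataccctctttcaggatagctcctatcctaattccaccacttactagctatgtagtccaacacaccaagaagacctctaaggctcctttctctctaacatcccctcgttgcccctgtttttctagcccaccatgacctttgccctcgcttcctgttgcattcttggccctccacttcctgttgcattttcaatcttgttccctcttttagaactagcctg
Ccl3: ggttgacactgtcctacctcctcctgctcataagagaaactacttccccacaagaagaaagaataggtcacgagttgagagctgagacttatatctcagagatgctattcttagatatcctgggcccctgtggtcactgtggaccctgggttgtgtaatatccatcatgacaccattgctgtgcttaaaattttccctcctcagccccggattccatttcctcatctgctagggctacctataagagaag
The Ccl9 window holds TGAATCA 53 bases before the start and GGAAAGCCC, an NF-kB match on the other strand, 35 bases before it. The Ccl6 and Ccl3 windows held no match to these letters. Of 32851 windows of this length, 15.7% held GGNNNTTCC, 6.75% TGANTCA and 9.37% AAANNGAAA. A match is a run of letters and not a bound site.

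Ccl2 encodes the main ligand of CCR2 (monocyte chemoattractant protein 1). Its level was 8.39, 5.94 and 4.99 FPKM in Control livers 1, 2 and 3 and 4.07, 2.76 and 3.25 FPKM in Lipophagy livers 1, 2 and 3. Every Lipophagy liver was below the lowest Control liver, and Control liver 1 was the highest of all. The means were 6.44 ± 1.75 and 3.36 ± 0.659 FPKM (SD, n = 3 each), and the log2 change was -0.76 (95% confidence interval -1.16 to -0.35, limma adjusted p = 0.134, unadjusted 0.00251). Ccl2 is also 1 of the genes that the study itself picked out from these livers, so that its direction is no independent evidence. With any 1 liver left out, the log2 change stayed between -0.90 and -0.58.

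Ccl7, the next gene on the chromosome and also a CCR2 ligand, was at 2.33, 1.87 and 0.981 FPKM in Control livers and at 0.877, 0.559 and 0.772 FPKM in Lipophagy livers. The groups did not overlap, but Control liver 3 was only just above Lipophagy liver 1. The log2 change was -0.62 (95% confidence interval -1.04 to -0.21, adjusted p = 0.162). With a pseudocount of 0.1 it was -1.07, and that of Ccl2 was -0.90, so the order of both depends on the pseudocount. The number of Ccl2 transcripts per Ccl7 transcript, as FPKM divided by FPKM within a liver, was 3.95 ± 1.002 in Control and 4.60 ± 0.373 in Lipophagy livers (exact permutation p = 0.4, two-sided), so a difference between both neighbours was not resolved. With 3 livers against 3, this test cannot give a p below 0.1.

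The 4 chemokine genes that follow Ccl7 in that cluster were hardly expressed: none reached the mean of 0.5 FPKM required for testing. Ccl12, another CCR2 ligand of the mouse, was the highest of them, at 0.626, 0.231 and 0.162 FPKM in Control and 0, 0.244 and 0.449 FPKM in Lipophagy livers. Ccl11 (eotaxin-1), Ccl8 and Ccl1 were at most 0.242, 0.241 and 0.268 FPKM in any liver, and each was listed at 0 in some livers of both groups.

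**Figure D2:**
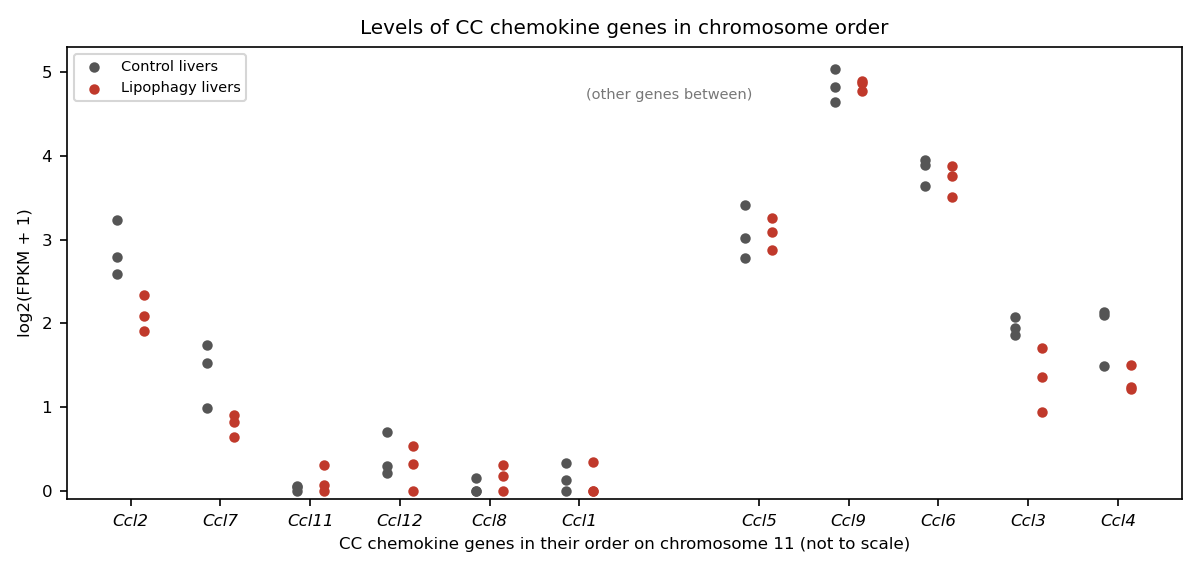
log2(FPKM + 1) of CC chemokine genes in each liver (points; grey Control, red Lipophagy), in the order of the genes on chromosome 11 and not to scale. Ccl2 and Ccl7, at the left, and Ccl3 and Ccl4, at the right, have lower means in red, with an overlap of 1 pair of livers for Ccl4; Ccl5, Ccl9 and Ccl6, which stand between them, overlap widely.

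Ccl3 and Ccl4 encode macrophage inflammatory proteins 1α and 1β, made by activated macrophages and lymphocytes. Ccl3 was at 3.21, 2.64 and 2.85 FPKM in Control livers and at 1.57, 2.27 and 0.914 FPKM in Lipophagy livers. Here the Control livers were close together and the Lipophagy livers were spread, without overlap. The log2 change was -0.62 (95% confidence interval -1.03 to -0.22, adjusted p = 0.160).

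Ccl4 was at 3.40, 3.27 and 1.81 FPKM in Control livers and at 1.83, 1.35 and 1.33 FPKM in Lipophagy livers. Control liver 3 was thus just below Lipophagy liver 1, and the groups overlapped by that pair alone. The log2 change was -0.59 (95% confidence interval -0.99 to -0.18, adjusted p = 0.168). The ratio of Ccl3 to Ccl4 within a liver was 1.11 ± 0.408 in Control and 1.07 ± 0.528 in Lipophagy livers (exact permutation p = 0.8).

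Ccl5 (RANTES), a product of T cells and NK cells, overlapped fully between groups. Its level was 9.64, 5.87 and 7.08 FPKM in Control livers and 6.34, 8.55 and 7.51 FPKM in Lipophagy livers. The log2 change was 0.0050, with a 95% confidence interval of -0.38 to 0.39 that does not reach the values of Ccl2, Ccl7, Ccl3 or Ccl4. The interval is wide enough to hold the change of Cx3cr1 or Ccr2.

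Ccl9 was the highest of the 10 genes in 6 of 6 livers and Ccl6 the second highest in 6 of 6. Ccl9 was at 24.0, 27.3 and 32.0 FPKM in Control livers and at 26.3, 28.2 and 28.7 FPKM in Lipophagy livers. The Lipophagy livers all lay within the range of the Control livers, and the log2 change was 0.0078 (95% confidence interval -0.24 to 0.26, adjusted p = 0.975). Ccl6 was at 11.5, 14.5 and 13.8 FPKM in Control livers and at 10.4, 13.7 and 12.5 FPKM in Lipophagy livers, with a log2 change of -0.11 (95% confidence interval -0.39 to 0.17, adjusted p = 0.628). It ranged from -0.20 without Control liver 1 to -0.0092 without Lipophagy liver 1, and was -0.29 with TPM scaling. Both groups overlapped for Ccl6, with liver 1 the lowest in each.

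Ccl24 was low. Its level was 1.93, 1.34 and 1.33 FPKM in Control livers and 2.32, 1.32 and 2.22 FPKM in Lipophagy livers. Lipophagy liver 2 sat with the Control livers and the other 2 were above all of them. The log2 change was 0.21 (95% confidence interval -0.15 to 0.57, adjusted p = 0.465). It was 0.38 when Lipophagy liver 2 was left out and 0.12 when Lipophagy liver 1 was. With TPM scaling the log2 change of Ccl24 was 0.11, and with quantile normalization 0.29. The receptor of this chemokine, Ccr3, was at 0.0374 to 0.0476 FPKM in Control and 0.0536 to 0.154 FPKM in Lipophagy livers, too low to be tested. Of 5 eosinophil markers only Siglecf, which some macrophages express as well, was above 0 in all livers (0.196 to 0.426 FPKM), whereas Epx, Prg2 and Il5ra were at 0 in most livers and Ear6 was at 0 in all.

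Ccr2 was at 2.16, 2.01 and 1.85 FPKM in Control livers and at 1.12, 1.78 and 1.41 FPKM in Lipophagy livers. The groups did not overlap, and Lipophagy liver 2 was close to the Control livers. The log2 change was -0.31 (95% confidence interval -0.56 to -0.057, adjusted p = 0.204). Cx3cr1 was at 2.23, 1.52 and 1.96 FPKM in Control livers and at 1.29, 1.26 and 1.33 FPKM in Lipophagy livers, which had an SD of 0.0363 FPKM. Its log2 change was -0.33 (95% confidence interval -0.57 to -0.096, adjusted p = 0.175). The ratio of Ccr2 to Cx3cr1 within a liver was 1.08 ± 0.211 in Control and 1.11 ± 0.273 in Lipophagy livers (exact permutation p = 0.9). The log2 changes of Ccr2 and Cx3cr1 were -0.47 and -0.51 with a pseudocount of 0.1 and -0.48 and -0.50 with TPM scaling.

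**Figure D3:**
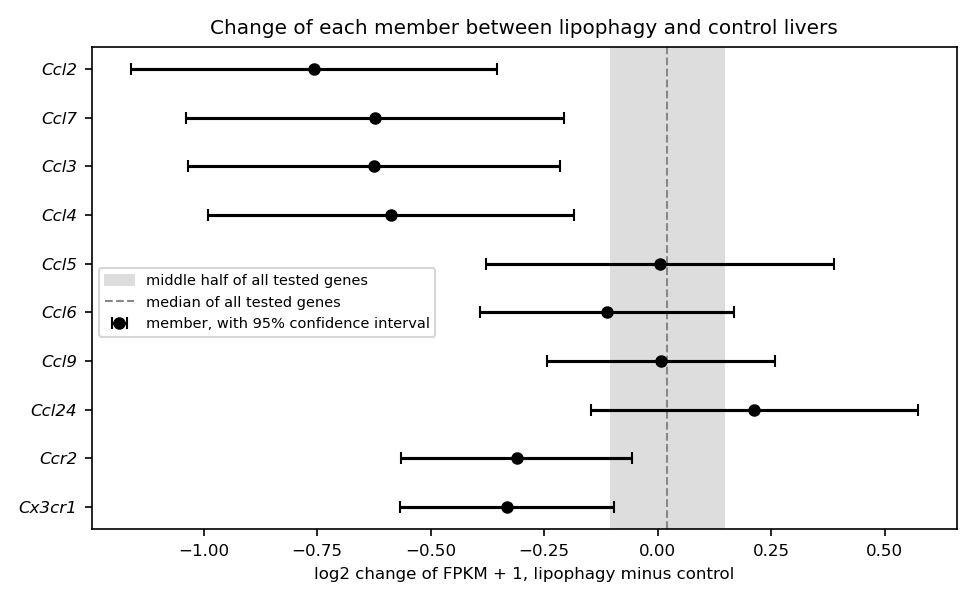
log2 change of FPKM + 1 (Lipophagy minus Control, x axis) of each of the 10 genes, with its 95% confidence interval from limma; the dashed line is the median of all tested genes (0.020) and the grey band holds the middle 50 percent of them (-0.10 to 0.15). The intervals of Ccl2, Ccl7, Ccl3 and Ccl4 lie wholly below that band, and those of Ccl5, Ccl6, Ccl9 and Ccl24 cross 0.

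In order of level, the Control means ran from Ccl9 (27.7 FPKM), Ccl6 (13.3), Ccl5 (7.53) and Ccl2 (6.44) to Ccl3 (2.90), Ccl4 (2.82), Ccr2 (2.005), Cx3cr1 (1.90), Ccl7 (1.73) and Ccl24 (1.53). Ccl5 and Ccl2 overlapped between Control livers, as did each pair of neighbours from Ccl3 downward, whereas Ccl9, Ccl6 and Ccl5 were separated from each other, and Ccl2 from Ccl3. In Lipophagy livers Ccl2 no longer overlapped with Ccl5, and Ccl7 (0.736 FPKM) lay below all the others without overlap. Ccl9 made up 40.9% ± 5.86 of the summed FPKM of the 10 genes in Control and 46.8% ± 1.07 in Lipophagy livers, and Ccl2 made up 9.48% ± 2.50 and 5.71% ± 1.41. The sum itself was 66.2 to 68.8 FPKM in Control and 56.1 to 61.8 FPKM in Lipophagy livers.

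The chemokines were also set against each other inside each liver, which takes away any factor that scales all genes of a liver alike. Ccl2 per Ccl9 was 0.350, 0.218 and 0.156 in Control and 0.154, 0.0979 and 0.113 in Lipophagy livers, and Ccl3 per Ccl9 was 0.134, 0.0967 and 0.0890 against 0.0598, 0.0804 and 0.0319. Both ratios were lower in every Lipophagy liver (exact permutation p = 0.1 each, the smallest possible), as was that of Cx3cr1 to Ccl9. Those of Ccl4, Ccl7 and Ccr2 to Ccl9 overlapped between groups (exact permutation p = 0.2 each). These p-values are not adjusted, and 20 ratios were computed. The mean of Ccl9 hardly differed between groups (0.9996 of the Control mean). Ratios to it therefore largely repeat the differences of the other genes and are no separate evidence.

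Other leukocyte genes were lower in the same livers, and in whole liver fewer cells of a type cannot be told apart from less RNA per cell. Of 7 general leukocyte markers, 7 had a negative log2 change, 6 of them without overlap (10.8% of all tested genes were lower without overlap) and 0 with an adjusted p below 0.05, and their summed level was 274 to 333 FPKM in Control and 251 to 267 FPKM in Lipophagy livers. Coro1a, an actin regulator of leukocytes, had the most negative value (log2 change -0.44, adjusted p = 0.134), followed by Laptm5 (-0.32) and Ptprc, which encodes CD45 (-0.28). Ptprc was at 3.34, 2.76 and 2.60 FPKM in Control and 2.01, 2.26 and 2.32 FPKM in Lipophagy livers.

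Divided by Ptprc of the same liver, Ccl2 was at 2.51, 2.15 and 1.92 in Control and 2.02, 1.22 and 1.40 in Lipophagy livers, with an overlap by 1 pair (exact permutation p = 0.2). Ccl7, Ccl3 and Ccl4 per Ptprc also overlapped between groups (exact permutation p = 0.2, 0.3 and 0.2). For the receptors, Ccr2 per Ptprc was 0.695 ± 0.0434 and 0.650 ± 0.121 (exact permutation p = 0.6) and Cx3cr1 per Ptprc was 0.658 ± 0.103 and 0.591 ± 0.0426 (p = 0.5). Ccl9 per Ptprc was 7.17, 9.88 and 12.3 in Control livers and 13.1, 12.5 and 12.3 in Lipophagy livers, higher in each of the latter (exact permutation p = 0.1). The third liver of each group was nearly level on that scale. The part of leukocyte content in the lower levels of the chemokines and receptors was not tested beyond these ratios.

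**Figure D4:**
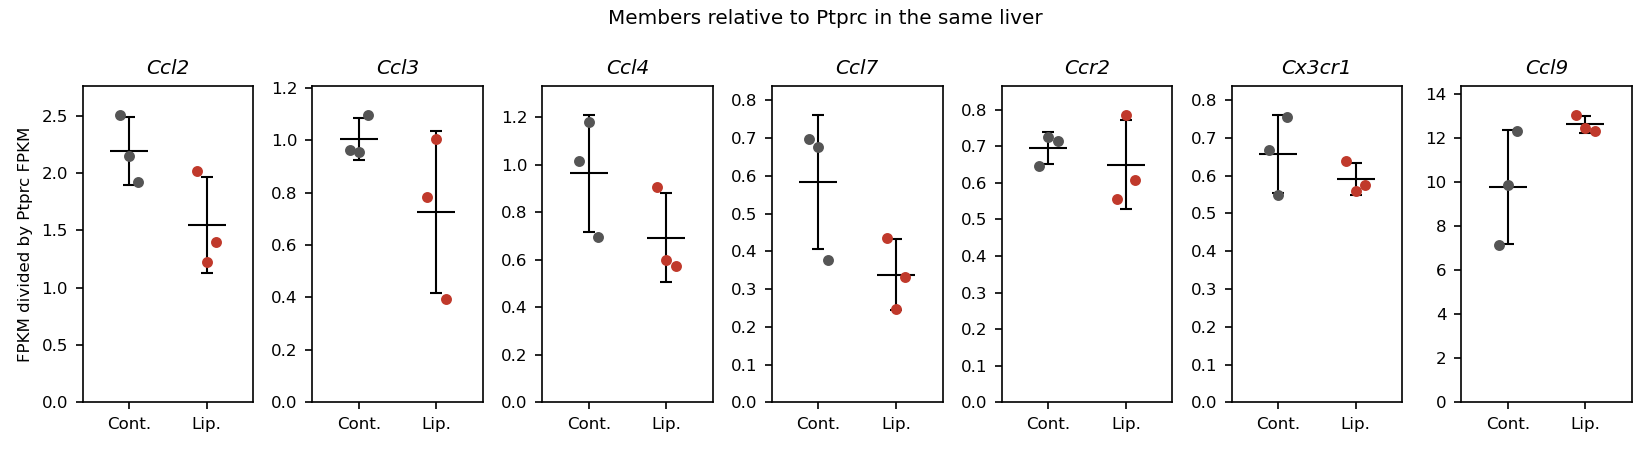
FPKM of 7 of the genes divided by FPKM of Ptprc (CD45) in the same liver (points; grey Control, red Lipophagy), with group mean and SD; each panel starts at 0. Ccl2, Ccl3, Ccl4, Ccl7, Ccr2 and Cx3cr1 overlap between groups on this scale, and Ccl9 is higher in the 3 Lipophagy livers.

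The markers of the cells that carry or make these proteins differed to unequal degrees. Of 7 tested monocyte markers, 7 had a negative log2 change, 5 of them without overlap (10.8% of all tested genes), with a median log2 change of -0.27. Ly6c2, which marks the CCR2-bearing monocytes, had the most negative (-0.45, adjusted p = 0.160), then Chil3 (-0.39) and Nr4a1, a regulator of patrolling monocytes (-0.27). Chil3 passed the filter on low values only through the Control livers. The summed monocyte level was 127 to 149 FPKM in Control and 115 to 131 FPKM in Lipophagy livers. Most of that sum was Fn1 (fibronectin), which hepatocytes also make, at 85.5 to 109.7 and 84.97 to 97.3 FPKM with overlapping livers. Plac8 made up most of the rest, at 32.01 to 36.96 and 26.5 to 29.5 FPKM without overlap. Of 10 macrophage markers 9 had a negative log2 change, 3 of them without overlap against the same 10.8% (Cd68 at -0.38, Fcgr1 at -0.30 and Csf1r at -0.28), Adgre1 (F4/80) was at 0.054, and the sums were 741 to 981 and 717 to 880 FPKM, of which Lyz2 alone was 323 to 486 and 330.3 to 455 FPKM.

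Markers of Kupffer cells, the resident macrophages of the liver, did not go the same way: 4 of 5 tested had a positive log2 change. Vsig4 was higher in every one (log2 change 0.40, adjusted p = 0.161), Clec4f, their defining marker, was at 0.17 and Cd5l at -0.094, with sums of 97.6 to 124 and 109 to 134 FPKM. Of the T and NK cell markers, 5 of 13 could be tested, 2 with a negative and 3 with a positive log2 change, among them Xcl1 (-0.30), Nkg7 (-0.26) and Gzma (0.12), with sums of 8.70 to 9.37 and 6.78 to 9.51 FPKM. Of 7 neutrophil markers only 2 could be tested, S100a9 (-0.60, without overlap) and S100a8 (-0.37). The others were too low to be tested, and their means did not all differ in the same direction. The sums of the neutrophil markers were 17.9996 to 31.4 and 15.7 to 19.04 FPKM. Hepatocyte markers stood the other way, with 7 of 8 at a positive log2 change and 4 higher without overlap, where 15.4% of all tested genes were higher without overlap. Among them were Ass1 (0.72, adjusted p = 0.0832) and Alb (0.47), and Apoa1 was at -0.062. Alb alone was at 35470 to 64089 FPKM, so the defining marker of the labelled tissue was present. The summed level was 56730 to 64705 FPKM in Control and 68938 to 91283 FPKM in Lipophagy livers, and its part in the lower share of leukocyte genes was not tested.

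Further genes of the chemokine system were examined as 3 lists, and 0 of their genes passed the adjusted test. Of 17 other chemokines, 5 could be tested, 4 with a negative and 1 with a positive log2 change. Ccl19, a lymphoid chemokine, was at a log2 change of -0.37 and Cx3cl1, the ligand of CX3CR1, at -0.32, both without overlap. Cx3cl1 was at 0.695, 0.951 and 0.703 FPKM in Control and 0.406, 0.450 and 0.416 FPKM in Lipophagy livers, so that it passed the filter on low values only through the Control livers. Ccl21a was at -0.91 with overlapping livers, and it is uncertain because near-identical copies of the gene exist and because it, too, passed the filter only through the Control livers. Ccl25 had the opposite difference, higher in each Lipophagy liver (log2 change 0.47, adjusted p = 0.119).

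Of 15 other receptors, 5 were tested. Ccr1, the receptor of CCL3, CCL5, CCL6 and CCL9, was at -0.083 with overlapping livers, and the scavenger receptor Ackr2, which removes CC chemokines, was at -0.10. Ackr1 was the only one with a positive change (0.13).

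Of 29 tested genes of leukocyte chemokine signalling, 24 had a negative log2 change, 15 of them without overlap, and 5 had a positive one. Among the 15, Plcb2 passed the filter only through the Control livers. Over all tested genes 10.8% were lower without overlap on the same FPKM scale. With TPM scaling that share was 27.2%, and the genes of this list were not counted at that scaling. The median log2 change was -0.14. Among the most negative were Vav1, an exchange factor for Rac (-0.34, adjusted p = 0.134), and Pik3cd, a leukocyte PI3-kinase (-0.30). The most positive were Gnai3 (0.15), an inhibitory G protein subunit that most cell types express, and Grk6 (0.080).

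The precision of the low genes was limited by counting. From the steps in the low values, depth was estimated at 24.4 to 34.9 M fragments in Control and 23.5 to 25.4 M in Lipophagy livers. On that estimate Ccl7 rested on 7.88 to 38.4 fragments per liver, Ccl3 on 13.1 to 56.1 and Ccl4 on 14.6 to 42.8, which are estimates and not whole numbers. For Ccl7, 95% Poisson intervals were 1.65 to 3.198 FPKM in Control liver 1, 0.608 to 1.5003 FPKM in Control liver 3 and 0.467 to 1.4991 FPKM in Lipophagy liver 1, so the order of the last 2 is not resolved by counting. Ccl2 rested on 39.7 to 141 fragments by its shortest and 58.0 to 206 by its longest annotated transcript. These intervals cover counting error only.

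**Figure D5:**
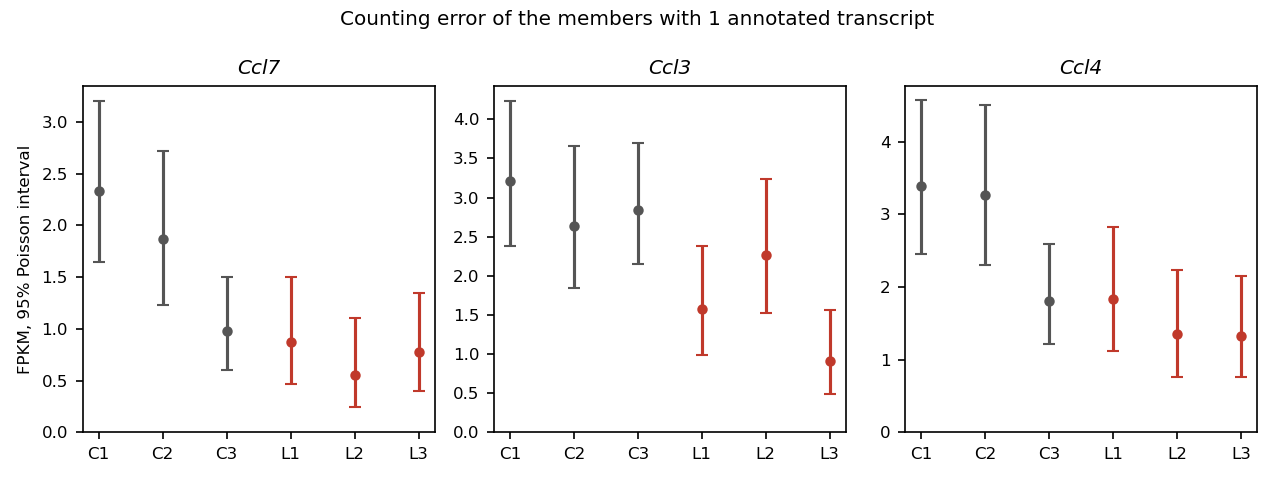
FPKM of Ccl7, Ccl3 and Ccl4, the genes with 1 annotated transcript, in Control (C1 to C3, grey) and Lipophagy (L1 to L3, red) livers; bars are 95% Poisson intervals from the estimated fragments and cover counting error only. The intervals of Control liver 3 and Lipophagy liver 1 overlap for each of the 3 genes.

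Over the whole series, the sum of FPKM was 622696 to 681138 in Control and 709993 to 782392 in Lipophagy livers, while the median of the tested genes was 5.72 to 5.80 FPKM in all 6. Scaling each liver to the same sum (TPM) therefore moved the median log2 change of all tested genes from 0.020 to -0.13, and the split of genes at an unadjusted p below 0.05 from 916 lower and 1327 higher to 2506 lower and 236 higher. With quantile normalization it was 899 lower and 745 higher. Relative to the median of all genes, the change of Ccl2 was -0.78 on the FPKM scale, -0.83 with TPM and -0.76 with quantile normalization. That of Ccl5 was -0.015, -0.032 and -0.029, and that of Ccl9 was -0.012, -0.041 and -0.12. Plin1 and Optn, the genes that gave LDTS and eLIR their sequence, do not check the labels, since both groups carry LDTS and the other part is of human origin.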

How the data were processed

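Liver RNA of 3 Control and 3 Lipophagy mice was analysed, and the labels gave the groups. Deposited by the authors were FPKM values, scaled to transcript length and mapped fragments, for 24346 gene symbols, from poly(A), strand-specific, paired-end libraries. The submitters' processing notes name TopHat2 2.0.13, Bowtie2 2.2.3, SAMtools 0.1.19, Cufflinks 2.2.1 and the mm10 build; the annotation is not given in the sources used here. The instrument is a HiSeq in the labels and a NovaSeq in the methods.

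FPKM values are not counts, so log2(FPKM + 1) was tested with limma 3.58.1 in R 4.3.3, with an intensity trend and no covariates, over the 11493 genes whose mean reached 0.5 FPKM; tests are two-sided and a gene was called at a Benjamini-Hochberg adjusted p below 0.05. Log2 changes are on this scale and understate those of low genes. Ratios within a liver were compared with exact permutation tests. The procedure was tested on simulated data. Python 3.11.15, pandas 2.3.3, numpy 2.4.6, scipy 1.17.1 and matplotlib 3.10.9 were used for the rest.

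Depth was estimated from the steps of low FPKM values and GENCODE transcript lengths less 200 bases. With it, 68.3% to 75.5% of low genes lay within 0.1 of a whole number of fragments. Depth and the 200 bases were chosen to bring these same genes nearest to whole numbers, so this share is no check of the estimate. Places come from GENCODE and RefSeq on GRCm38, the same assembly as mm10. No promoter entry was used for Ccl2, Ccl4, Ccl5, Ccl7 and Ccl24.

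The 10 genes and all lists were chosen with earlier results of these data known. From each other list the text names up to 3 genes with the most negative and 2 with the most positive change, and the defining marker of a cell type; Ccr1, Ccr3, Ptprc beyond its list, Siglecf and the other eosinophil markers, Cx3cl1, Fn1, Plac8, Plcb2, Lyz2, Ccl1, Ccl8, Ccl11 and Ccl12 were named, or given liver by liver, after their values were seen. Ly6g was not analysed here, and some results that this rule calls for are not reported here. Spearman correlations between livers were 0.980 to 0.991, and 0 pairs were identical. Same-numbered livers of both groups deviated together with r of 0.25, 0.23 and -0.057 across genes, so the numbers were not taken as pairs. Alternatives were other pseudocounts, filters and scalings, no trend, quality weights, the replicate number as a block and each liver left out.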

Additional observations from a re-analysis of the deposited data

How the results depend on the processing

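Of 160 alternative log2 changes of the 10 genes (16 settings each), 147 kept their direction and their side of the threshold. The number of called genes among all tested ones was 3, and it was 1 with no filter, 104 with TPM scaling (99 of them lower), 39 with quality weights and 2 to 11 with 1 liver left out. No paired design was used; with the replicate number as a block, 43 genes were called, 1 of the 10 among them (Ccl2, adjusted p = 0.0448, 0 of 10 without the block), and no other call on the 10 differed. Control liver 3 correlated best with Lipophagy liver 2 (r = 0.25), not with its own number. The cause of these differences was not tested. Over all alternatives the lowest adjusted p was 0.0756 for Ccl3, 0.0866 for Ccl4, 0.0916 for Ccl7, 0.0916 for Cx3cr1 and 0.111 for Ccr2, each with TPM scaling. With quantile normalization 3 of the 10, instead of 5, were lower without overlap, where this held for 10.2% of all tested genes. The median log2 change of the 10, -0.32, was -0.49 with a pseudocount of 0.1 and -0.49 with TPM scaling.

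Ccl5 and Ccl9, both near 0, changed sign. Ccl5 was at -0.16 with TPM scaling, -0.022 with quantile normalization and -0.14 to 0.18 with 1 liver left out. Ccl9 was at -0.17 with TPM scaling, -0.11 with quantile normalization, -0.034 with quality weights and -0.089 to 0.11 with 1 liver left out. Depth limits the low genes most: Ccl7 rested on 7.88 to 38.4 fragments per liver, a counting error of 16.1% to 35.6%.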
